A study of Saccharomyces cerevisiae with 4 samples.

Results

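The tricarboxylic acid cycle genes from 2-oxoglutarate to oxaloacetate were examined in budding yeast, in the SSG1-1 mutant (SSG1_SDC) against wild-type W303-1A (WT_SDC). The 10 genes were taken from the order of the pathway, and the choice was made with earlier results of these data known. They encode 2-oxoglutarate dehydrogenase (KGD1, KGD2), succinyl-CoA ligase (LSC1, LSC2), succinate dehydrogenase (SDH1, SDH2, SDH3, SDH4), fumarase (FUM1) and mitochondrial malate dehydrogenase (MDH1). Each had 1 probe set named for it, all 10 passed the filter on detection calls, and they were measured among 5376 tested probe sets for 5330 genes. Each strain had 2 one-colour Affymetrix arrays, numbered 1 and 2 in the labels. The mutant is described in the series title as long-lived, and the labels do not say which change the SSG1-1 allele carries. Both strains were kept at 25 °C in YPD and then spent 12 h in SDC medium of pH 6.0, reaching early-log phase with 2000000 cells in each ml. Separate cultures are not stated for the arrays of a strain, so the spread behind the p-values may be a technical one.

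In this stretch of the cycle, 2-oxoglutarate is oxidised to succinyl-CoA, succinyl-CoA to succinate with the gain of a nucleoside triphosphate, succinate to fumarate, fumarate is hydrated to malate, and malate is oxidised to oxaloacetate. Succinate dehydrogenase is also complex II of the respiratory chain and hands its electrons to ubiquinone in the inner mitochondrial membrane. In budding yeast many genes of respiration and of the cycle are repressed by glucose and activated by the Hap complex, whose regulated subunit is Hap4.

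Signals are intensities on a linear scale after quantile normalization of the log2 values, unless they are called deposited. The median deposited signal of S. cerevisiae probe sets ranged from 874 to 1171 over the 4 arrays, and that of probe sets for another yeast on the same array ranged from 4.8 to 5.3. STE2, the alpha-factor receptor that defines MATa cells, had signals of 12655 and 12992 in SSG1_SDC and 13837 and 13873 in WT_SDC. The 3 genes specific to MATalpha cells (STE3, MF(ALPHA)1, MF(ALPHA)2) had signals between 17.9 and 110.2 on the 4 arrays. The number of arrays sets the precision, with a standard error of 0.163 for the median probe set.

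For 9 of the 10 genes both SSG1_SDC arrays lay above both WT_SDC arrays, and for 0 they lay below. Over all tested probe sets the corresponding shares were 14.0% above and 18.0% below. The median log2 difference, SSG1_SDC minus WT_SDC, was 0.42 over the 10 genes and -0.02 over all tested probe sets. It was 0.40 between the arrays numbered 1 and 0.47 between those numbered 2. No single gene of the 10 passed limma's test adjusted over all probe sets (adjusted p between 0.562 and 0.998), a threshold that 0.0186% of tested probe sets passed on the higher side. At an unadjusted p under 0.05 in limma, 7 of the 10 were higher, against 2.72% of tested probe sets. The arrays measured RNA of whole cultures, so a different share of cells in a given state and a different amount of RNA per cell cannot be told apart.

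The gap between the strains, from the lowest SSG1_SDC array to the highest WT_SDC array, was compared with the spread inside each strain. After quantile normalization this gap exceeded the difference between the 2 arrays of either strain for 6 of the 10 genes (LSC2, SDH1, SDH2, SDH3, SDH4 and MDH1). Among all tested probe sets 4.56% had such a gap on the higher side. In the deposited values these 6 genes did not keep such a gap, and for SDH1 the strains overlapped. Array 2 of SSG1_SDC gave the highest signal for 8 of the genes and array 1 of SSG1_SDC for the other 2. Array 2 of WT_SDC gave the lowest for 6 and array 1 of WT_SDC for 4.

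The 9 non-overlapping genes depended on the scaling between arrays. In the deposited values, where the median over all tested probe sets was -0.15, both SSG1_SDC arrays lay above both WT_SDC arrays for 5 of the 10 (LSC2, SDH2, SDH3, SDH4 and MDH1), against 3.40% of all tested probe sets. The median of the 10 was then 0.26. With median centring it was 0.41, with 9 genes not overlapping, against 13.3% of all tested probe sets higher in this way.

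**Figure D1:**
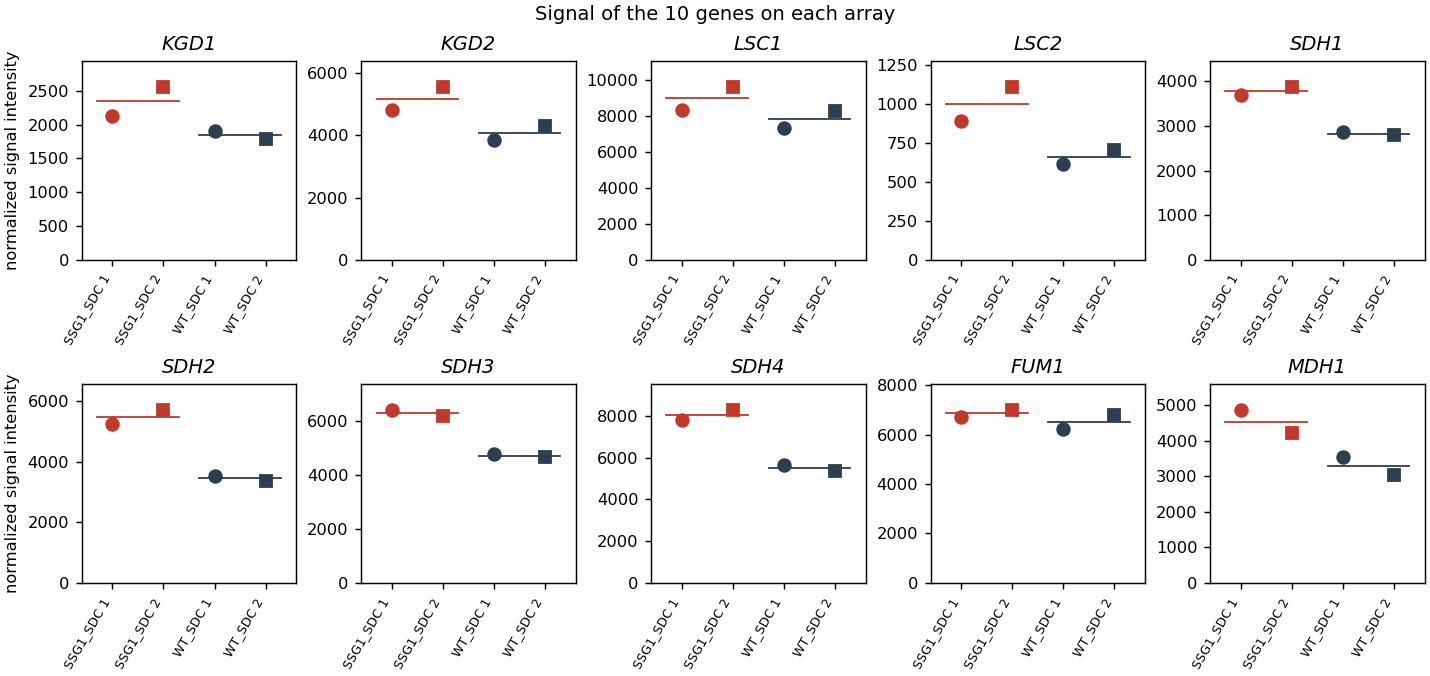
Normalized signal intensity (linear, from 0) of the 10 genes on each array, SSG1_SDC in red and WT_SDC in dark blue, with circles for arrays numbered 1, squares for arrays numbered 2 and lines for the mean of each strain. The red points lie above the dark blue points in every panel except FUM1, where SSG1_SDC array 1 (6717) lies below WT_SDC array 2 (6797).

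KGD1 (YIL125W) encodes the E1 subunit of 2-oxoglutarate dehydrogenase, which decarboxylates the substrate. Its signals were 2131 and 2556 in SSG1_SDC and 1909 and 1783 in WT_SDC. The strains did not overlap, but the mutant arrays differed from each other by more than the gap between the strains. The log2 difference was 0.34 ± 0.15 (SE, n = 2 per strain), with a 95% interval of -0.04 to 0.71 (limma adjusted p = 0.998). In the deposited values, 1835 and 2645 in SSG1_SDC against 2201 and 1734 in WT_SDC, the strains overlapped. Leaving out array 2 of SSG1_SDC gave KGD1 a log2 difference of 0.21, and leaving out array 1 of SSG1_SDC gave 0.47.

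KGD2 (YDR148C) encodes the E2 subunit, which carries the lipoyl group and transfers the succinyl group to coenzyme A. Its signals were 4802 and 5552 in SSG1_SDC and 3850 and 4292 in WT_SDC, and both arrays numbered 2 were above those numbered 1. The log2 difference was 0.34 ± 0.12 (SE; 95% interval 0.03 to 0.66, limma adjusted p = 0.998). KGD1 and KGD2 therefore had nearly equal differences, with more spread between arrays in KGD1.

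The subunits of succinyl-CoA ligase had unequal differences. LSC1 (YOR142W), the alpha subunit, had signals of 8342 and 9595 in SSG1_SDC and 7327 and 8259 in WT_SDC. The lowest mutant array lay just above the highest wild-type array, and the log2 difference of 0.20 ± 0.11 (SE) had a 95% interval of -0.08 to 0.48. For LSC1 it was 0.10 without array 2 of SSG1_SDC, 0.12 without array 1 of WT_SDC, 0.30 without array 1 of SSG1_SDC and 0.08 in the deposited values. LSC2 (YGR244C), the beta subunit, had signals of 891.8 and 1110 in SSG1_SDC and 617 and 702.5 in WT_SDC. Its log2 difference of 0.60 ± 0.17 (SE; 95% interval 0.15 to 1.04, limma adjusted p = 0.944) was the second largest of the 10 and corresponded to a 1.51-fold higher mean signal. For both genes the array numbered 2 was above the array numbered 1 in each strain.

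All 4 subunits of succinate dehydrogenase were higher on both mutant arrays, with log2 differences between 0.42 and 0.67 and a median of 0.48. SDH2 (YLL041C), the iron-sulfur subunit that carries electrons towards ubiquinone, had signals of 5266 and 5711 in SSG1_SDC and 3546 and 3357 in WT_SDC. On this normalized scale neither strain's arrays came close to the other's. In the deposited values, 4727 and 5694 in SSG1_SDC against 4076 and 3329 in WT_SDC, the strains stayed apart. The gap there was smaller than the difference between the arrays of either strain. After quantile normalization the log2 difference of SDH2 was 0.67 ± 0.10 (SE, n = 2 per strain; 95% interval 0.41 to 0.93, limma adjusted p = 0.562), a 1.59-fold higher mean signal. It was the largest of the 10 and ranked 81 from the top of the 5376 tested probe sets.

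SDH4 (YDR178W), a membrane anchor subunit, had signals of 7817 and 8278 in SSG1_SDC and 5630 and 5356 in WT_SDC (log2 difference 0.55 ± 0.08 SE, 95% interval 0.34 to 0.77, limma adjusted p = 0.562). SDH3 (YKL141W), the other anchor subunit, had signals of 6388 and 6163 in SSG1_SDC and 4748 and 4663 in WT_SDC. Among the 10 genes its arrays lay closest together in SSG1_SDC (SD 0.04 on the log2 scale) and also in WT_SDC (SD 0.02). The log2 difference of SDH3 was 0.42 ± 0.09 (SE; 95% interval 0.20 to 0.63, limma adjusted p = 0.782).

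SDH1 (YKL148C), the flavoprotein subunit that oxidises succinate, had signals of 3683 and 3871 in SSG1_SDC and 2855 and 2800 in WT_SDC. The log2 difference was 0.42 ± 0.10 (SE; 95% interval 0.15 to 0.69, limma adjusted p = 0.936). Array by array, SDH1 lay closest of the 10 genes to their mean profile. In the deposited values its lower mutant array and its higher wild-type array were almost level, at 3258 in SSG1_SDC and 3260 in WT_SDC, which is why SDH1 was not among the 5 genes that kept the strains apart there.

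FUM1 (YPL262W), whose product serves as fumarase in the mitochondrion and in the cytosol, was the member with overlapping arrays. Its signals were 6717 and 6991 in SSG1_SDC and 6236 and 6797 in WT_SDC. The log2 difference was 0.07 ± 0.09 (SE; 95% interval -0.15 to 0.30, limma adjusted p = 0.998), and -0.08 in the deposited values. Without array 1 of WT_SDC the FUM1 difference was 0.014, and without array 2 of WT_SDC it was 0.14. The interval of FUM1 over the 4 arrays did not meet those of SDH2 and SDH4, while it met those of the other 7 genes.

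MDH1 (YKL085W), the mitochondrial malate dehydrogenase that closes the cycle by forming oxaloacetate, had signals of 4869 and 4222 in SSG1_SDC and 3558 and 3032 in WT_SDC. The arrays numbered 1 were above those numbered 2 in both strains, the opposite order from KGD2, LSC1 and LSC2. The log2 difference was 0.47 ± 0.14 (SE; 95% interval 0.11 to 0.82, limma adjusted p = 0.944). Ordered by log2 difference the 10 genes ran SDH2, LSC2, SDH4, MDH1, SDH1, SDH3, KGD2, KGD1, LSC1 and FUM1, and the 95% intervals of neighbours in that order overlapped throughout. The interval lay above 0 for 7 genes and held 0 for KGD1, LSC1 and FUM1.

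**Figure D2:**
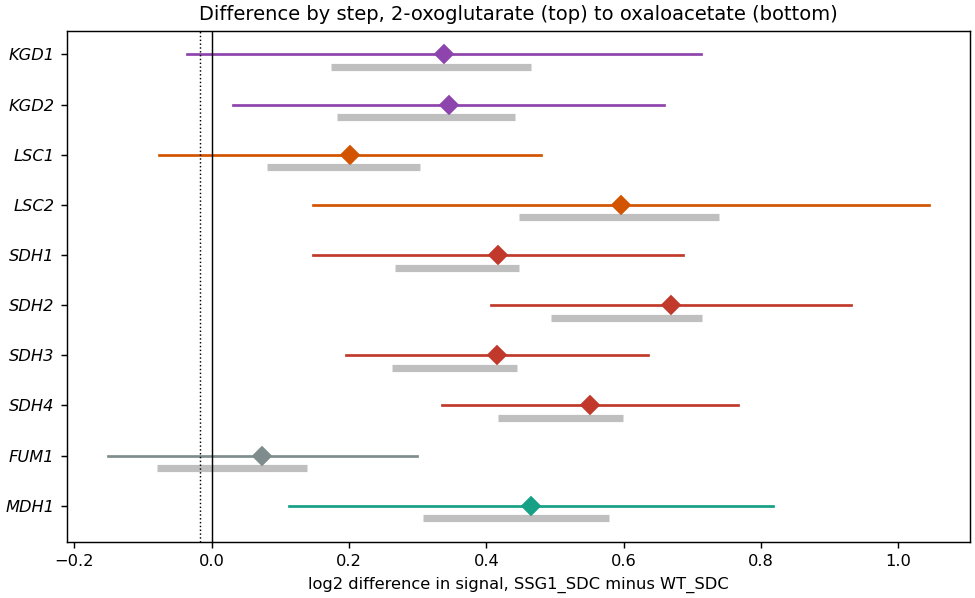
Log2 difference in signal, SSG1_SDC minus WT_SDC (diamonds), with limma's 95% intervals (coloured lines) for the 10 genes from 2-oxoglutarate at the top to oxaloacetate at the bottom; grey bars span the estimates under 13 other settings, the solid line is 0 and the dotted line is the median of all tested probe sets (-0.02). SDH2 stands farthest right at 0.67 and FUM1 nearest to 0 at 0.07.

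The balance between subunits and between successive steps was described within each array from the deposited signals, where the array's overall scale cancels. Each log2 ratio is given relative to the mean of the WT_SDC arrays. With 2 arrays per strain an exact two-sided permutation test cannot give a p below 0.333, so these ratios are values without a call. Of the 12 ratios, 5 were higher and 3 lower on both SSG1_SDC arrays than on both WT_SDC arrays, and 4 overlapped. These counts have no background, because no share over other pairs of genes was computed, and many of the ratios share genes. For SDH4 over SDH2, counted as lower, array 1 of SSG1_SDC (-0.028) was almost level with array 2 of WT_SDC (-0.025).

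The ratio of fumarase to succinate dehydrogenase, the latter taken as the mean log2 signal of its 4 genes, stood at -0.43 and -0.45 in SSG1_SDC, against -0.09 and 0.09 in WT_SDC. The ratio of MDH1 to FUM1 stood at 0.49 and 0.28 in SSG1_SDC, against 0.17 and -0.17 in WT_SDC. Relative to the step on either side, FUM1 thus had a smaller signal on both mutant arrays than on both wild-type arrays. Against succinate dehydrogenase the gap between the strains exceeded the difference between the 2 arrays of either strain. Against MDH1 the gap was smaller than the difference within either strain. The ratios of succinyl-CoA ligase to 2-oxoglutarate dehydrogenase (0.08 and 0.10 in SSG1_SDC, -0.09 and 0.09 in WT_SDC) and of succinate dehydrogenase to succinyl-CoA ligase (0.23 and -0.04 in SSG1_SDC, 0.13 and -0.13 in WT_SDC) overlapped.

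Within succinate dehydrogenase, the SDH2 to SDH1 ratio was nearly equal on both mutant arrays, at 0.23 and 0.23 in SSG1_SDC against 0.01 and -0.01 in WT_SDC. SDH4 over SDH1 stood at 0.20 and 0.10 in SSG1_SDC and 0.04 and -0.04 in WT_SDC. SDH3 over SDH1 had a mean difference of -0.0038 and overlapped. SDH3 over SDH2 stood at -0.14 and -0.33 in SSG1_SDC and -0.02 and 0.02 in WT_SDC. SDH4 over SDH3 stood at 0.11 and 0.20 in SSG1_SDC and 0.04 and -0.04 in WT_SDC. In direction, SDH2 and SDH4 thus had larger differences between the strains than SDH1 and SDH3. Only for SDH2 over SDH1 did the gap between the strains exceed the difference between the arrays of each strain. LSC2 over LSC1 stood at 0.20 and 0.54 in SSG1_SDC and -0.03 and 0.03 in WT_SDC, so the direction was shared by both mutant arrays and the size was not. KGD2 over KGD1 overlapped, at 0.09 and -0.07 in SSG1_SDC and -0.13 and 0.13 in WT_SDC.

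**Figure D3:**
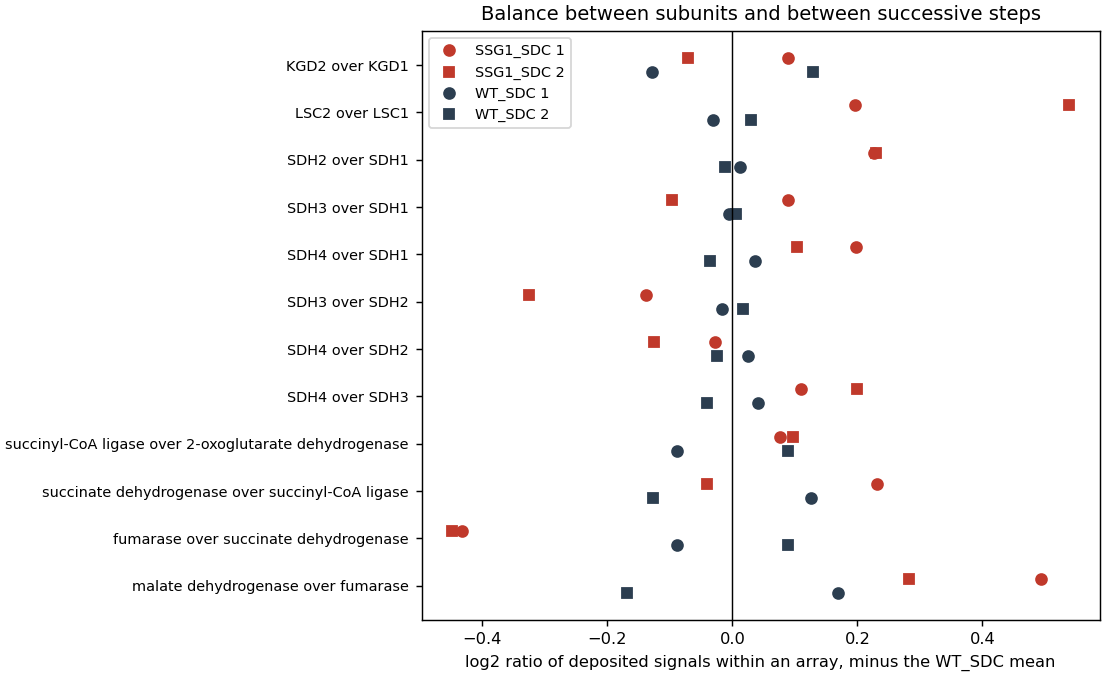
Log2 ratios of deposited signals within an array, minus the mean of the WT_SDC arrays, for 8 pairs of subunits of the same complex and 4 pairs of successive steps; red marks SSG1_SDC, dark blue WT_SDC, circles arrays numbered 1 and squares arrays numbered 2. The fumarase to succinate dehydrogenase ratio lies near -0.44 on both mutant arrays, and the SDH2 to SDH1 ratio near 0.23.

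The partner subunits of 2-oxoglutarate dehydrogenase were also higher on both mutant arrays after quantile normalization, as were 14.0% of all tested probe sets, but overlapped in the deposited values. LPD1, the dihydrolipoamide dehydrogenase shared with other 2-oxo acid complexes, had signals of 4165 and 4274 in SSG1_SDC and 3670 and 3775 in WT_SDC (log2 difference 0.18 ± 0.10 SE, and 0.02 in the deposited values). KGD4, which recruits that enzyme to the complex, had signals of 3989 and 4174 in SSG1_SDC and 3278 and 2888 in WT_SDC (0.41 ± 0.12 SE, limma adjusted p = 0.944, and 0.25 in the deposited values). Neither passed the adjusted threshold.

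The genes for assembly of succinate dehydrogenase stood at a median of 0.28 (log2 difference), with 0 past the adjusted threshold. For 3 of 4 (SDH5, SDH6 and SDH7) both mutant arrays were above the wild type, against 14.0% of all tested probe sets. In each of these 3 the gap between the strains was smaller than the difference between the 2 SSG1_SDC arrays. In the deposited values the strains overlapped for all 4 assembly genes and their median was 0.13. SDH5, needed to attach FAD to Sdh1, had signals of 721 and 659.9 in SSG1_SDC and 625.6 and 482.7 in WT_SDC (0.33 ± 0.18 SE). SDH8, which acts on Sdh1 during assembly, had a log2 difference of 0.34 ± 0.19 and overlapping arrays. SDH7, which helps the iron-sulfur subunit mature, stood at 0.24 ± 0.14, and SDH6, with a like role, at 0.14 ± 0.14, but at -0.01 in the deposited values.

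Paralogs of these genes were measured by separate probe sets. MDH2, the cytosolic malate dehydrogenase, had signals of 3598 and 5375 in SSG1_SDC and 3288 and 3378 in WT_SDC (0.40 ± 0.21 SE), and without mutant array 2 the difference was 0.12. MDH3, the peroxisomal enzyme, had signals of 5514 and 6965 in SSG1_SDC and 5495 and 5294 in WT_SDC (0.20 ± 0.14 SE), with mutant array 1 nearly level with the wild type. MDH2 and MDH3 both overlapped in the deposited values. SHH3, the paralog of SDH3, was dim, with signals of 36.2 and 52.0 in SSG1_SDC and 44.6 and 36.7 in WT_SDC, and the strains overlapped. SHH4, the paralog of SDH4, also overlapped (0.03 ± 0.23 SE, and -0.12 in the deposited values). The SDH1 paralog SDH9 (YJL045W) had no probe set named for it here.

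Fumarate reductases run the succinate dehydrogenase reaction in the opposite direction. FRD1, the cytosolic enzyme, had signals of 5185 and 5614 in SSG1_SDC and 5775 and 6698 in WT_SDC (-0.21 ± 0.11 SE, limma adjusted p = 0.998). It was lower on both mutant arrays, as were 18.0% of all tested probe sets. The log2 gap between the strains was -0.04, smaller in size than the difference between the 2 WT_SDC arrays (0.21). With 1 array left out the FRD1 difference ran from -0.32 to -0.095. OSM1, the other fumarate reductase, had a log2 difference of 0.10 ± 0.14, and -0.07 in the deposited values, with overlapping arrays.

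Carriers that move intermediates of these steps across the inner membrane stood at a median log2 difference of 0.17 (4 tested genes). ODC1, which exchanges 2-oxoglutarate and related acids and was singled out with its value known, had signals of 1932 and 2076 in SSG1_SDC and 1125 and 981.6 in WT_SDC. Its log2 difference of 0.93 ± 0.14 (SE, limma adjusted p = 0.562) exceeded that of each of the 10 cycle genes. Its strains stayed apart in the deposited values. The paralog ODC2 had 0.09 ± 0.08, and -0.02 in the deposited values. DIC1, the dicarboxylate carrier, had 0.24 ± 0.30 with overlapping arrays, and OAC1, the oxaloacetate carrier, had 0.09 ± 0.10, also overlapping. SFC1, which exchanges succinate for fumarate, had signals between 19.0 and 23.6 on all 4 arrays, was called present on neither array with a usable call and was not tested.

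The steps before 2-oxoglutarate were set beside the later ones. Over 6 tested genes from citrate synthase to isocitrate dehydrogenase the median log2 difference was 0.02. On both mutant arrays 1 gene was higher (CIT3) and 1 lower (IDH1), 16.7% each. Over all tested probe sets the shares were close to these, at 14.0% higher and 18.0% lower. CIT3, a second mitochondrial citrate synthase, was dim, at 154.3 and 106 in SSG1_SDC and 103.8 and 62.2 in WT_SDC. Its log2 difference of 0.67 ± 0.35 (SE, limma adjusted p = 0.998) was close to that of SDH2 (0.67 ± 0.10) with a wider error, and ran from 0.29 to 1.03 with 1 array left out. IDH1 and IDH2, the subunits of the NAD-dependent isocitrate dehydrogenase that makes 2-oxoglutarate, had differences of -0.07 ± 0.07 and 0.0035 ± 0.06 (SE), with IDH2 at -0.08 in the deposited values. IDH1 had signals of 8519 and 8486 in SSG1_SDC and 8944 and 8961 in WT_SDC. ACO1, the aconitase, had -0.04 ± 0.09, with a sign that turned under median centring, and CIT1, the mitochondrial citrate synthase, had 0.24 ± 0.19 with overlapping arrays. The CIT1 value was 0.0098 without array 1 of WT_SDC, 0.07 without array 2 of SSG1_SDC and 0.47 without array 2 of WT_SDC. The pyruvate dehydrogenase genes, which encode a complex built like 2-oxoglutarate dehydrogenase, had a median of -0.02 over 4 genes, from PDX1 at -0.23 ± 0.14 to LAT1 at 0.02 ± 0.07 (SE), with LAT1 at -0.10 in the deposited values. The pyruvate dehydrogenase median was -0.10 in the deposited values and 0.05 with median centring. The difference between these lists and the later steps was not tested.

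The respiratory complexes downstream of succinate dehydrogenase had medians nearer to that of the 10 genes, but their counts depended on the scaling between arrays. The counts stand beside 14.0% of all tested probe sets higher on both mutant arrays after quantile normalization and 3.40% in the deposited values. Complex III, which takes electrons from ubiquinone, had 9 tested genes with a median log2 difference of 0.39. All 9 of them were higher on both mutant arrays after quantile normalization and 6 of 9 in the deposited values. The complex III median was 0.28 in the deposited values, against 0.26 for the 10 genes. With median centring it was 0.42, against 0.41 for the 10 genes. CYT1 was at 0.54 ± 0.11 and QCR7 at 0.21 ± 0.08 (SE). Complex IV reached a median of 0.26 and had 8 of 9 genes higher on both mutant arrays, against 6 of 9 with median centring and 2 of 9 (COX4 and COX12) in the deposited values, where its median was 0.14. Its log2 differences ran from COX5B at -0.03 ± 0.45 to COX12 at 0.38 ± 0.07. The ATP synthase reached a median of 0.26 and had 12 of 12 genes higher on both mutant arrays, against 3 of 12 (ATP3, ATP7 and ATP15) in the deposited values, where its median was 0.14. Its log2 differences ran from ATP1 at 0.15 ± 0.07 to ATP14 at 0.50 ± 0.22, the second of which was 0.18 without array 2 of WT_SDC. None of these genes passed the adjusted threshold (limma adjusted p between 0.727 and 0.998).

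**Figure D4:**
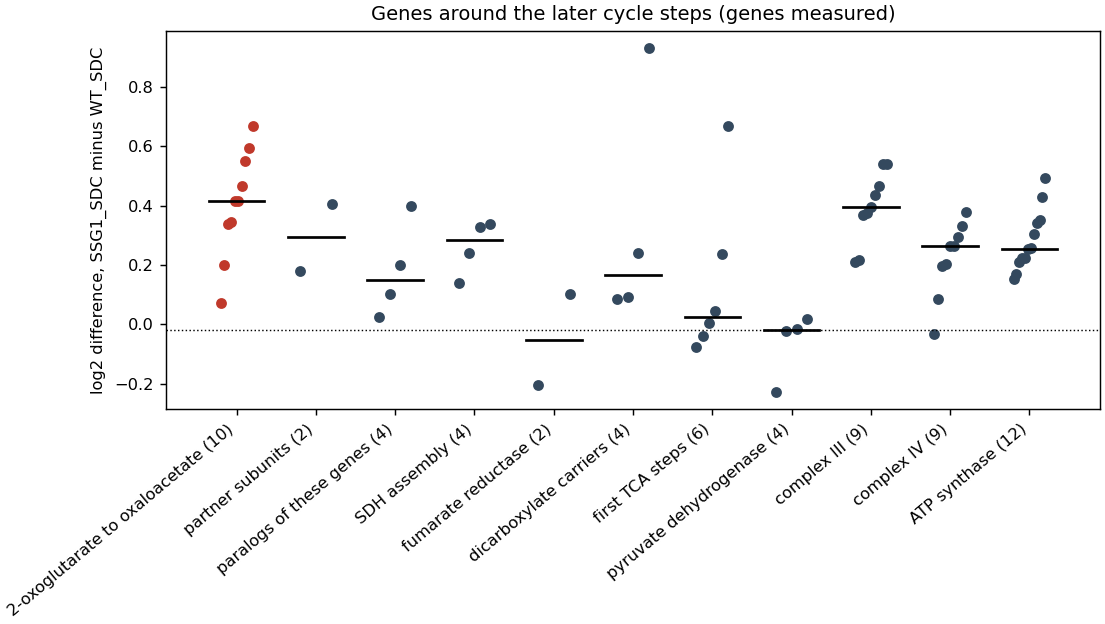
Log2 difference, SSG1_SDC minus WT_SDC, of each tested gene (points) in the later cycle steps (red) and in lists around them (dark), with the median of each list as a bar and the number of genes in brackets; the dotted line is the median of all tested probe sets (-0.02). After quantile normalization the medians run from -0.05 for the fumarate reductases to 0.42 for the later cycle steps, with complex III at 0.39. In the deposited values and with median centring the complex III median was slightly above that of the later cycle steps.

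Among the regulators, HAP4 had signals of 1696 and 1455 in SSG1_SDC and 1140 and 889.8 in WT_SDC, a log2 difference of 0.64 ± 0.18 (SE), with an adjusted p of 0.944 in limma. The log2 gap between the strains was 0.352, slightly smaller in size than array 2 minus array 1 of WT_SDC (-0.357). With 1 array left out the HAP4 difference ran from 0.46 to 0.81. The DNA-binding subunits had overlapping arrays for HAP2 (0.09 ± 0.32, and -0.07 in the deposited values) and HAP3 (-0.02 ± 0.25, with a sign that turned under median centring). HAP5 was lower on both mutant arrays, as were 18.0% of all tested probe sets. Its signals were 117.2 and 100.2 in SSG1_SDC and 126 and 126.3 in WT_SDC (-0.22 ± 0.20). Of the retrograde regulators, which control the steps up to 2-oxoglutarate when respiration is impaired, RTG1 was dim and lower on both mutant arrays, at 43.7 and 32.3 in SSG1_SDC and 88.0 and 51.9 in WT_SDC (-0.85 ± 0.38 SE, limma adjusted p = 0.998). The RTG1 value was -0.44 without array 1 of WT_SDC and -1.24 without array 2 of WT_SDC. RTG2 and RTG3 overlapped, at 0.07 ± 0.16 and 0.09 ± 0.18, and both were negative in the deposited values.

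Likeness of pattern was measured as the Euclidean distance between log2 signals over the 4 arrays, each gene centred on its own mean, among 5320 other genes. The 5 genes closest to the mean profile of the succinate dehydrogenase subunits were OM14 (distance 0.0536), YKL162C (0.0584), MSE1 (0.0735), MCR1 (0.0889) and EMI2 (0.0905). OM14 encodes a protein of the outer mitochondrial membrane, MSE1 the mitochondrial glutamyl-tRNA synthetase and MCR1 a mitochondrial cytochrome b5 reductase. YKL162C and EMI2 are left undescribed here, so no location common to the 5 is claimed. The 5 closest to the mean profile of all 10 genes were MRPL3 (0.0180), AIM36 (0.0587), ARN2 (0.0596), CAT2 (0.0606) and CYC1 (0.0630). MRPL3 encodes a mitochondrial ribosomal protein, ARN2 a siderophore transporter, CAT2 carnitine acetyltransferase and CYC1 the main cytochrome c. Within the 10, SDH1 was closest to their mean profile (0.0379) and FUM1 farthest from it (0.345). A profile over 4 arrays holds few values, and many genes lie close to any such profile.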

How the data were processed

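Biotin-labelled cRNA from 500 ng of total RNA was hybridised, per the labels. The deposited values are MAS5 signal intensity per probe set and array, per the file headers. The submitters' processing notes name GCOS, and its scaling target is not given in the sources used here. Other deposited columns hold detection calls (present, marginal, absent) that the authors' software made. Of the 4 call columns, 2 stand beside a value column whose header names a strain. The remaining 2 and the 2 value columns beside them, 4 in all, name no strain and were not used.

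Signals below 0.1 were set to 0.1, log2 values were quantile-normalized over all 10928 probe sets, and 5376 probe sets named for 1 S. cerevisiae gene and present in at least 1 usable call column were tested. Names came from the platform annotation, updated through gene identifiers to the R64 reference table. Limma 3.58.1 in R 4.3.3 (lmFit, eBayes with a mean-variance trend) compared the strains without a block, with Benjamini-Hochberg adjustment over all tested probe sets. Errors (SE) are the moderated ones of limma. The fit was tested on simulated data with 200 changed probe sets. It recovered 83.6% of them at a log2 change of 1 and 98.1% at 2, with 11.7 false calls per run. In the data 1 probe set was called, and ODC1, with a log2 difference of 0.93 ± 0.14 (SE), was not. The simulated shares therefore may not hold for these data. Changes as small as those of the 10 genes were not simulated, so recovery at their size is not known. Figures used Python 3.11.15 and matplotlib 3.10.9.

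The 10 genes and the surrounding lists were chosen with earlier results of these data known. The rule for named genes takes the 10 genes, their partners, paralogs, assembly genes, fumarate reductases, DIC1, SFC1, CIT1, ACO1, IDH1, IDH2, the HAP and RTG genes, up to 2 extremes of the respiratory complex and pyruvate dehydrogenase lists and the 5 genes nearest in pattern. CIT3, ODC1, ODC2, OAC1, and the genes that stayed apart in deposited values were named after their values were seen. Genes with several probe sets were represented by the brightest. The within-array ratios were chosen after values were seen. COB and COX26 had no probe set named for them. The 3 lipoylation genes stood at a median of -0.06 (log2 difference). 13 alternatives were tried.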

Additional observations from a re-analysis of the deposited data

How the results depend on the processing

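The log2 differences of 9 of the 10 genes stayed positive under all 13 alternatives, and that of FUM1 was -0.080 with the values as deposited. With those values 6 probe sets were called, 5 of the 10 genes did not overlap and their median was 0.264. Median centring gave 4 calls, and the fit with no mean-variance trend and the signal floor of 16 gave 0 each. With each array left out in turn, 1 to 4 probe sets were called.

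Same-numbered arrays deviated together from their strain means (correlation 0.634 across probe sets), but what the number stands for is not stated. The fit with a replicate block called 828 probe sets, 427 higher and 401 lower, among them 9 of the 10 genes, all but FUM1. In that fit and in the fit of the deposited values limma took each variance from the mean-variance trend alone.

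Genes around the 10 turned sign as follows. With the values as deposited, SHH4 was at -0.12, SDH6 -0.011, OSM1 -0.067, ODC2 -0.020, LAT1 -0.10, IDH2 -0.080, HAP2 -0.067, RTG2 -0.10 and RTG3 -0.038. With median centring, ACO1 was at 0.00089 and HAP3 at 0.0017. Leaving out an array gave ranges for SHH3 (-0.16 to 0.37), SHH4 (-0.22 to 0.28), DIC1 (-0.13 to 0.61), OAC1 (-0.022 to 0.20), LAT1 (-0.032 to 0.068), COX5B (-0.63 to 0.58), ACO1 (-0.13 to 0.051), IDH2 (-0.025 to 0.031), HAP2 (-0.26 to 0.44), HAP3 (-0.33 to 0.29), RTG2 (-0.065 to 0.20) and RTG3 (-0.041 to 0.22). Without 1 array the log2 difference moved by over 1.5 times for 3 of the 10 genes (KGD1, LSC1 and FUM1) and for 53 of the 84 listed genes, the 10 and the mating-type markers included. None of the 8 within-array ratios that did not overlap changed sign with quantile-normalized values or without any 1 array, alternatives chosen after seeing the data. The number of arrays, 2 per strain, limits the precision of every value.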
